A study of Mus musculus with 16 samples.

Results

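The mouse genome carries a family of gasdermin genes, and 9 of them were taken by name from the 55359 genes counted in whole dorsal skin: *Gsdma*, *Gsdma2* and *Gsdma3*, then *Gsdmc*, *Gsdmc2*, *Gsdmc3* and *Gsdmc4*, then *Gsdmd* and *Gsdme*. The skin came from 16 wild-type C57Bl/6N mice (C57Bl/6 in the labels) of 8 weeks whose hair follicles were at rest (telogen), with 4 mice in each of 4 groups: no-UVB males, UVB males, no-UVB females and UVB females. UVB mice were irradiated 3 times, once every 2 days, and skin was collected on day 5, 6 h after the third exposure. Each library came from its own mouse, and polyadenylated RNA was sequenced with its strand kept. The question was how each gasdermin mRNA moved with UVB in each sex.

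Gasdermins are proteins with a pore-forming front portion that is held shut by the rear portion of the same protein. A protease cuts between the portions, the front portions assemble into pores in the plasma membrane, and the cell releases cytokines such as interleukin-1β and can lyse, a death called pyroptosis. Gasdermin D is the main target of the inflammasome caspases, gasdermin E can be cut during apoptosis, and gasdermin A is known as an epidermal gasdermin that a streptococcal protease can open. Gasdermin C has been described in gut epithelium and in keratinocytes, and dominant mutations of *Gsdma3* cause hair loss in mice.

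Reads on genes numbered 16495776 to 33404831 per mouse (median 21767339), and values are given as CPM, the reads of a gene relative to the library total after TMM scaling, which corrects totals for genes that take up unequal shares. A count of 3 reads corresponded to 0.0933 to 0.191 CPM. RNA from whole skin cannot tell fewer cells of a type from less RNA per cell. Markers of other cells moved between the groups as well. The summed CPM of 9 suprabasal keratinocyte markers was 7749 to 11350 in no-UVB males, 19620 to 27420 in UVB males, 7359 to 10620 in no-UVB females and 11590 to 15950 in UVB females. The summed CPM of 5 fibroblast markers was 59300 to 65210 in no-UVB males and at most 27480 in any other mouse, so the no-UVB males stood apart in collagen mRNA. Replicates 3 and 4 of the no-UVB males also stood apart in 12 hair shaft and inner root sheath markers, with a summed CPM of 102 and 157 beside 21.6 and 15.5 in the other mice of their group and at most 29.5 in any other group, although all follicles were described as resting. Gasdermin calls that changed without both of these mice are given beside them.

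The 9 genes lie at 4 places of GRCm39. *Gsdma3* (chr11:98517186-98529624), *Gsdma2* (chr11:98537585-98548790) and *Gsdma* (chr11:98555177-98568534) follow each other on the plus strand. *Gsdmc* (chr15:63647817-63680608), *Gsdmc2* (chr15:63696195-63717026), *Gsdmc3* (chr15:63729573-63750407) and *Gsdmc4* (chr15:63763113-63784146) stand in a row on the minus strand. *Gsdmd* (chr15:75733974-75739257, plus strand) lies farther along the same chromosome, and *Gsdme* (chr6:50165868-50240842, minus strand) stands alone. Within the A and C rows the coding sequences were 82.8 to 97.1% identical, and between the subfamilies 46.9 to 52.9%. How near the copies are decides what a read can tell, so the first 60 coding bases are shown, with capitals at bases that differ from *Gsdmc* or from *Gsdma*.
Gsdmc: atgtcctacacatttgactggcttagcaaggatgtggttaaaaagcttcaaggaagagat
Gsdmc2: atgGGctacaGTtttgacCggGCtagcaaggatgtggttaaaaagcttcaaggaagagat
Gsdma: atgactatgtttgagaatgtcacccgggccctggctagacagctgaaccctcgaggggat
Gsdma2: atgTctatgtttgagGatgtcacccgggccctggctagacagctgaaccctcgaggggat
Gsdma3: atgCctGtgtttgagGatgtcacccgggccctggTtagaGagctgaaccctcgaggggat
*Gsdmc3* and *Gsdmc4* began with the same 60 bases as *Gsdmc2*, which differed from *Gsdmc* at 7 of them. *Gsdma2* differed from *Gsdma* at 2 bases and *Gsdma3* at 5. The files counted no read that mapped to several places. The share of 100-base stretches of each main transcript that were found nowhere else in the genome or in transcripts of other genes was 98.2% for *Gsdma*, 97% for *Gsdma2* and 100% for *Gsdma3*. That share was 92.7% for *Gsdmc* but 74.8% for *Gsdmc2*, 68.8% for *Gsdmc3* and 79.8% for *Gsdmc4*, whose low counts are therefore less certain.

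*Gsdma* was the most abundant gasdermin mRNA and rose with UVB in both sexes. In the no-UVB males it was at 61.6, 48.9, 80.2 and 77.7 CPM, and in the UVB males at 269, 259, 223 and 224 CPM. In the no-UVB females it was at 113, 80.1, 76.0 and 46.5 CPM, and in the UVB females at 164, 166, 184 and 145 CPM. Every irradiated mouse was above every control mouse of its sex, and every UVB male was above every UVB female. The rise in males was 3.69-fold, a log2 fold change of 1.88 ± 0.15 (SE) with an adjusted p of 1.18e-05 by edgeR's quasi-likelihood test over 16535 genes. In females it was 2.10-fold, a log2 fold change of 1.07 ± 0.22 (SE, adjusted p = 0.0107 over 16883 genes). All 8 fits of each sex that left out 1 mouse kept the call. A gene is called at an adjusted p under 0.1, and by that rule 29% of all genes tested were higher and 30.5% lower after UVB in males, against 12.8% higher and 10.6% lower in females. A stricter call also asks for a log2 fold change past 1, which 4.08% of genes met upward and 3.31% downward in males, and 1.63% upward and 1.08% downward in females. *Gsdma* met the stricter call in both sexes, but in females its log2 fold change was 0.88 without replicate 4 of the no-UVB females and 0.97 with apeglm shrinkage, which do not meet it. Scaling moved these shares, since upper quartile scaling gave 3880 genes higher and 6130 lower in males, beside 4802 and 5051, and 1737 and 2157 in females, beside 2162 and 1787.

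**Figure D1:**
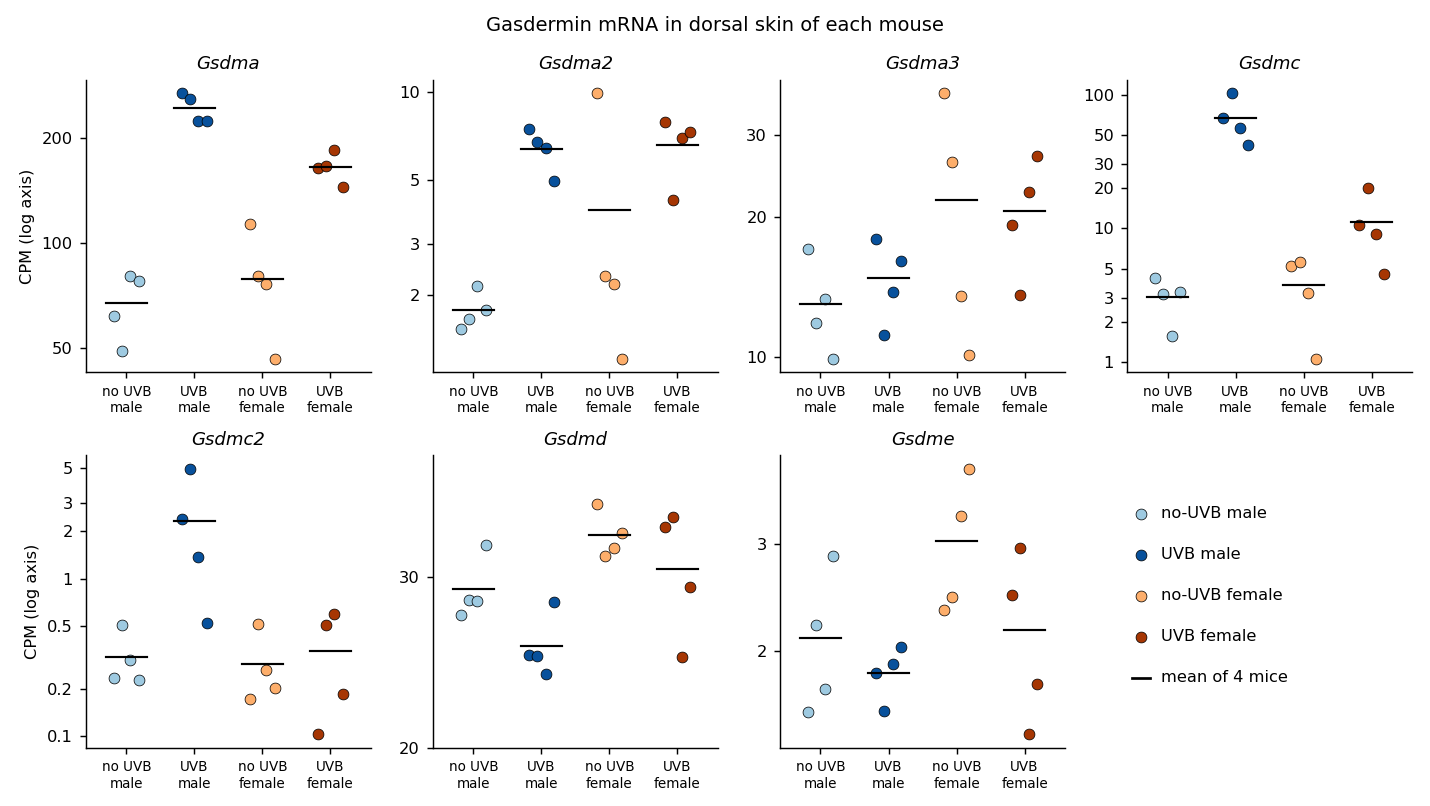
CPM of the 7 gasdermin genes that could be tested, on a log axis, with 1 point per mouse and a bar at the mean of each group of 4. *Gsdma*, *Gsdma2*, *Gsdmc* and *Gsdmc2* of the UVB males lie above those of all no-UVB males, while *Gsdma3*, *Gsdmd* and *Gsdme* overlap between treatments in both sexes. For *Gsdmc2* the gap is only 0.521 against 0.506 CPM. The share of all genes that separate in this way was not counted.

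*Gsdma2*, the middle gene of the row, was at a far lower level. The no-UVB males had 1.54, 1.66, 2.16 and 1.78 CPM and the UVB males 7.47, 6.76, 6.44 and 4.95 CPM, without overlap. The no-UVB females had 9.95, 2.34, 2.19 and 1.21 CPM and the UVB females 7.92, 4.25, 6.98 and 7.29 CPM. Only replicate 1 of the no-UVB females, with 230 reads, stood above the irradiated females. *Gsdma2* rose in males by 1.86 ± 0.17 (SE) on the log2 scale (adjusted p = 8.68e-06), which also met the stricter call. In females the log2 fold change was 0.76 ± 0.54 (SE, adjusted p = 0.385), with an interval of -0.33 to 1.85 (2 SE either way). Without replicate 1 of the no-UVB females it was 1.76 with an adjusted p of 0.00371, so this mouse decides whether *Gsdma2* is called in females.

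*Gsdma3*, the first of the row, did not pass the test in either sex. It was at 17.0, 11.8, 13.3 and 9.91 CPM in no-UVB males and at 17.9, 11.2, 13.8 and 16.1 CPM in UVB males. The no-UVB females spread from 10.1 to 36.9 CPM, with replicate 1 again the highest at 853 reads, and the UVB females from 13.6 to 27.0 CPM. The groups overlapped in every pairing of treatment and sex. The log2 fold change was 0.21 in males (interval -0.15 to 0.56, adjusted p = 0.356) and -0.07 in females (interval -0.81 to 0.67, adjusted p = 0.922). Without replicate 1 of the no-UVB males the male value was 0.36 with an adjusted p of 0.0891, and without replicate 1 of the no-UVB females the female value was 0.31 (adjusted p = 0.566). The interval in males excludes a change of the size seen in *Gsdma* and *Gsdma2*. In females the intervals of *Gsdma3* and *Gsdma2* overlapped.

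*Gsdmc* showed the largest rise among the tested members and the largest difference between the male and the female response. The no-UVB males had 4.24, 3.22, 1.56 and 3.32 CPM (36 to 91 reads) and the UVB males 67.2, 103, 56.1 and 42.0 CPM (806 to 2161 reads). The no-UVB females had 5.19, 5.62, 3.27 and 1.06 CPM and the UVB females 10.6, 19.99, 9.12 and 4.55 CPM. All UVB males were above all other mice, while replicate 4 of the UVB females lay within the range of the female controls. In males the rise was 22.2-fold, a log2 fold change of 4.47 ± 0.38 (SE, adjusted p = 5.97e-05), and each fit without 1 mouse kept it (4.19 to 4.67). In females it was 2.94-fold, a log2 fold change of 1.55 ± 0.50 (SE, adjusted p = 0.0649). The female call was lost in 5 of 8 fits that left out a mouse, namely UVB replicate 1, 2 or 3 or no-UVB replicate 3 or 4, with log2 fold changes of 1.09 to 1.64 and adjusted p-values of 0.119 to 0.194. It was also lost with every gene of at least 1 count (adjusted p = 0.259), and apeglm shrinkage brought the female value to 0.20.

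*Gsdmc2* was detected by few reads, and its 74.8% share of such stretches makes it less certain than *Gsdmc*. It had 0.233, 0.506, 0.303 and 0.229 CPM in no-UVB males and 2.40, 4.97, 1.37 and 0.521 CPM in UVB males. The groups did not overlap, but the lowest UVB male had 10 reads and the highest no-UVB male 11. The gene passed the filter on low counts through the UVB males, of which 4 of 4 lay past its limit of 0.474 CPM (of unscaled totals) beside 1 of 4 no-UVB males, so that it was tested because of the group in which it was high. The male log2 fold change was 2.82 ± 0.68 (SE, adjusted p = 0.00703), and without replicate 2 of the UVB males it was 2.22, still called. Females had 0.173 to 0.515 CPM without UVB and 0.103 to 0.599 CPM with it, too few reads to enter the female fit, and in a single fit of all 16 mice their log2 fold change was 0.30 ± 0.72 (SE, adjusted p = 0.806). *Gsdmc3* had 1 to 3 reads in each UVB male, 0 to 1 in UVB females and 0 in every control, and *Gsdmc4* had 0 to 2 reads in any mouse. Neither reached the test, and a fold cannot be given at or under 3 reads.

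*Gsdmd*, the gasdermin of the inflammasome pathway, stayed between 23.8 and 35.7 CPM in every mouse. It was at 27.4, 28.4, 28.4 and 32.4 CPM in no-UVB males and at 24.9, 24.9, 23.8 and 28.3 CPM in UVB males. Females had 31.5 to 35.7 CPM without UVB and 24.8 to 34.6 CPM with it. The treatments overlapped in both sexes. The male value fell by 0.17 on the log2 scale (interval -0.32 to -0.02, adjusted p = 0.0769), a call that held without UVB replicate 4 or without no-UVB replicate 1 and was lost in the other 6 fits with a mouse left out (adjusted p 0.123 to 0.206). The call was also lost with DESeq2's Wald test, with every gene of at least 1 count, with counts thinned to the smallest library and with all 16 mice in one fit (adjusted p 0.107 to 0.213). Without both no-UVB males high in hair shaft markers it was -0.09 (adjusted p = 0.423). The female value was -0.11 (interval -0.32 to 0.10, adjusted p = 0.534). In both sexes the interval excludes a rise of the size of *Gsdma*.

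*Gsdme* was low, with 25 to 102 reads per mouse. Its means were 2.10 ± 0.58 CPM (SD, n = 4) in no-UVB males, 1.84 ± 0.18 in UVB males, 3.03 ± 0.78 in no-UVB females and 2.16 ± 0.68 in UVB females. The log2 fold change was -0.15 in males (interval -0.57 to 0.27, adjusted p = 0.574), or 0.0032 without both no-UVB males high in hair shaft markers, and -0.47 in females (interval -0.98 to 0.05, adjusted p = 0.251). The gene overlaps the end of *Pals2*, a scaffold gene on the opposite strand at chr6:50087139-50185549. Over all mice 830 reads had the strand of *Gsdme* and 2200, or 72.6%, the opposite strand, so that the value of *Gsdme* depends on the strand setting, whereas at most 8.3% of reads were opposite for the other gasdermins. Some reads of *Pals2* kept on the wrong strand could also sit among the 830, and their part was not tested.

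**Figure D2:**
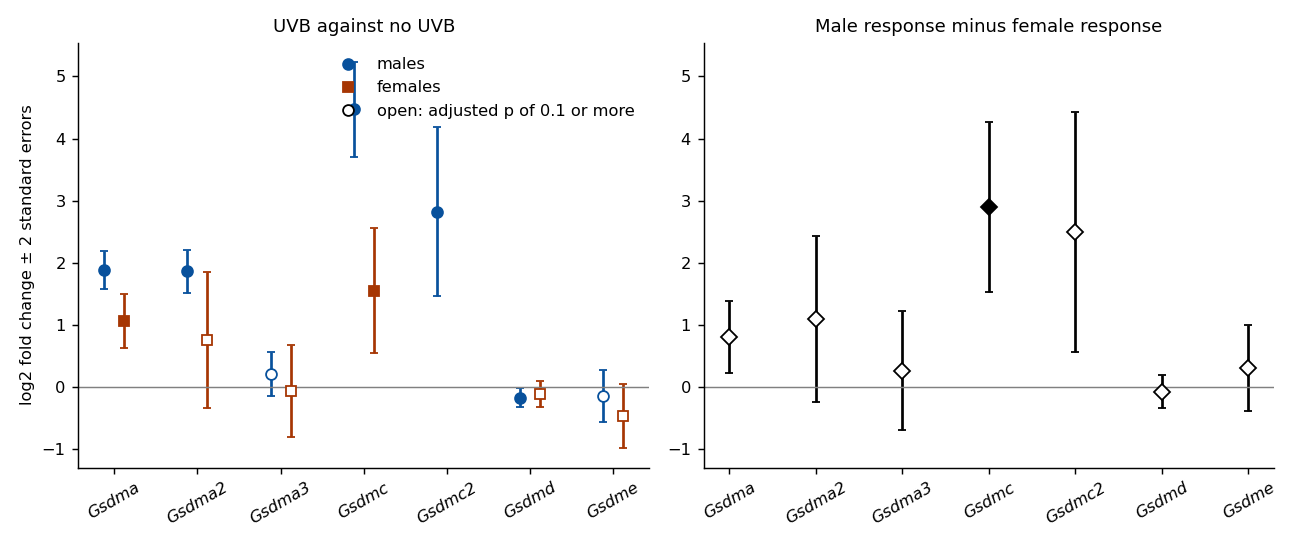
Left, log2 fold change of UVB against no UVB in males (circles) and females (squares), and right, the male response minus the female response, with bars of 2 standard errors either way. Filled symbols passed at an adjusted p under 0.1, and *Gsdmc* is the only filled symbol on the right, at 2.90. *Gsdmc2* had too few reads to be tested in females.

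Of the 9 genes, 7 could be tested in males, where 4 rose, 1 fell and 2 did not pass, *Gsdmc2* among the rises having entered through the group where it was high, and 6 in females, where 2 rose and 4 did not pass. Over all genes tested the shares were 29% higher and 30.5% lower in males and 12.8% higher and 10.6% lower in females. All 4 that rose in males and both that rose in females met the stricter call, beside 4.08% of all genes upward in males and 1.63% in females. With apeglm shrinkage, however, 0 of the female rises met it, and 0 to 3 gasdermins did in females with a mouse left out. The difference between the responses was tested itself, as an interaction over all 16 mice, in which 2.75% of genes tested were higher and 4.25% lower in males. These 478 and 740 genes became 687 and 641 with DESeq2 size factors and 1102 and 938 with DESeq2's Wald test, and the higher ones 832 without both no-UVB males high in hair shaft markers. With 1 mouse left out they were 163 (without replicate 1 of the UVB males) to 835 (without replicate 3 of the UVB females) higher and 298 (without the same UVB male) to 1020 (without replicate 3 of the no-UVB males) lower. *Gsdmc* rose more in males by 2.90 ± 0.68 (SE) on the log2 scale (adjusted p = 0.0395), and all 16 fits that left out a mouse kept this call (2.62 to 3.37, adjusted p 0.0225 to 0.0851). *Gsdma* did not pass, with a difference of 0.80 ± 0.29 (SE, adjusted p = 0.135), although it passed without replicate 4 of the no-UVB females (1.001, adjusted p = 0.0274) or replicate 3 of the no-UVB males (0.90, adjusted p = 0.0981). It passed as well with DESeq2's Wald test (0.83, adjusted p = 0.0467). Without both of those males it passed too (1.08, adjusted p = 0.0668), while *Gsdmc* was at 2.62 (adjusted p = 0.0765). *Gsdmc2* had a difference of 2.50 ± 0.97 (SE, adjusted p = 0.156), which passed without replicate 4 of the UVB males (2.83, adjusted p = 0.0652) and with a block for the replicate number (2.44, adjusted p = 0.0631), while the other 15 fits with a mouse left out did not pass, the lowest at 1.88 without replicate 2 of the UVB males. The intervals of *Gsdma2* (-0.24 to 2.43), *Gsdma3* (-0.70 to 1.22), *Gsdmd* (-0.34 to 0.19) and *Gsdme* (-0.38 to 0.99) all held 0. The difference of *Gsdma2*, 1.09, was 0.09 without replicate 1 of the no-UVB females.

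Without UVB, 0 of 7 gasdermins were called between the sexes by edgeR or by DESeq2's Wald test, while 7.21% of all genes tested were higher and 4.58% lower in males. These 1255 and 797 genes became 762 and 430 without replicate 2 of the no-UVB males. At an unadjusted p under 0.05, 9.61% of all genes tested were lower and 12.5% higher in males, and 3 of the 7 gasdermins were lower, namely *Gsdme* (-0.54), *Gsdma2* (-1.13) and *Gsdma3* (-0.73). Their adjusted p-values were 0.191, 0.198 and 0.222. Without replicate 4 of the no-UVB females, *Gsdma2* (-1.43, adjusted p = 0.0754) and *Gsdma3* (-0.98, adjusted p = 0.0662) passed, and without replicate 1 of that group they were at -0.12 and -0.35. After UVB, 12.8% of genes were higher in males and 12.5% lower, and 3 gasdermins were higher and 1 lower. Without replicate 1 of the UVB females the 2222 higher and 2169 lower genes became 1322 and 1469. *Gsdmc* was higher in UVB males than in UVB females by 2.58 ± 0.44 (SE, adjusted p = 0.00198), *Gsdmc2* by 2.64 ± 0.58 (SE, adjusted p = 0.00765) and *Gsdma* by 0.56 ± 0.20 (SE, adjusted p = 0.0688). *Gsdmd* was lower in UVB males by a log2 difference of -0.26 ± 0.09 (SE, adjusted p = 0.0645). Without UVB its difference was -0.19 ± 0.09 (SE, adjusted p = 0.257). The calls of *Gsdmc* and *Gsdmc2* held in all 16 fits that left out a mouse, although *Gsdmc2* was at 2.02 without replicate 2 of the UVB males. The UVB groups overlapped in *Gsdmc2*, with 0.521 CPM in male replicate 4 and 0.599 CPM in female replicate 3. Past this fit's low-count limit of 0.459 CPM were 4 of 4 UVB males and 2 of 4 UVB females. *Gsdma* was lost without UVB female replicate 1, 2 or 4 or UVB male replicate 1 or 2 (adjusted p 0.125 to 0.156) and with every gene of at least 1 count (0.55, adjusted p = 0.204), and *Gsdmd* without UVB female replicate 1 or 2 or UVB male replicate 1, 2 or 3 (adjusted p 0.130 to 0.189).

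Levels of different genes were compared per kilobase of the main transcript (FPKM). Without UVB the order in males was *Gsdma* at 24.6 ± 5.39 FPKM (SD, n = 4), *Gsdmd* at 14.7 ± 1.12, *Gsdma3* at 8.82 ± 2.05, *Gsdmc* at 1.28 ± 0.46, *Gsdma2* at 1.07 ± 0.16, *Gsdme* at 0.936 ± 0.258 and *Gsdmc2* at 0.160 ± 0.066. *Gsdmc*, *Gsdma2* and *Gsdme* did not differ beyond their spread. After UVB the male order was *Gsdma* at 89.4 ± 8.72, *Gsdmc* at 27.9 ± 10.8, *Gsdmd* at 12.9 ± 0.98, *Gsdma3* at 9.99 ± 1.98, *Gsdma2* at 3.83 ± 0.63, *Gsdmc2* at 1.17 ± 0.97 and *Gsdme* at 0.821 ± 0.082 FPKM. *Gsdmc2* and *Gsdme* overlapped, and without replicate 2 *Gsdmc2* was at 0.722, below *Gsdme* at 0.858. *Gsdmc* thus went from a place not told apart from those of *Gsdma2* and *Gsdme* to the second place in males. In UVB females *Gsdma* stood at 60.4 ± 5.96 FPKM, followed by *Gsdmd* at 15.5 ± 2.29 and *Gsdma3* at 13.9 ± 3.85, which overlapped, and then by *Gsdmc* at 4.61 ± 2.70 and *Gsdma2* at 3.95 ± 0.97, which overlapped as well. In the no-UVB females *Gsdma* was at 29.0 ± 10.03, *Gsdmd* at 16.8 ± 0.92 and *Gsdma3* at 14.7 ± 8.33 FPKM. Below them *Gsdma2* was at 2.35 ± 2.42, *Gsdmc* at 1.57 ± 0.87, *Gsdme* at 1.35 ± 0.35 and *Gsdmc2* at 0.145 ± 0.079. *Gsdma2*, *Gsdmc* and *Gsdme* did not differ beyond their spread, and without replicate 1 *Gsdma2* was the lowest of these 3, at 1.14 FPKM beside 1.38 for *Gsdmc* and 1.46 for *Gsdme*. *Gsdma* made up 47.2 ± 5.80% of the summed FPKM of the family in no-UVB males and 61.4 ± 2.69% in UVB males, against 43.7 ± 3.90% and 60.6 ± 3.27% in females. The share of *Gsdmc* went from 2.53 ± 0.99 to 18.7 ± 5.16% in males and from 2.27 ± 0.99 to 4.59 ± 2.68% in females, while that of *Gsdmd* went from 28.7 to 8.97% in males and from 27.3 to 15.6% in females as the sum grew.

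**Figure D3:**
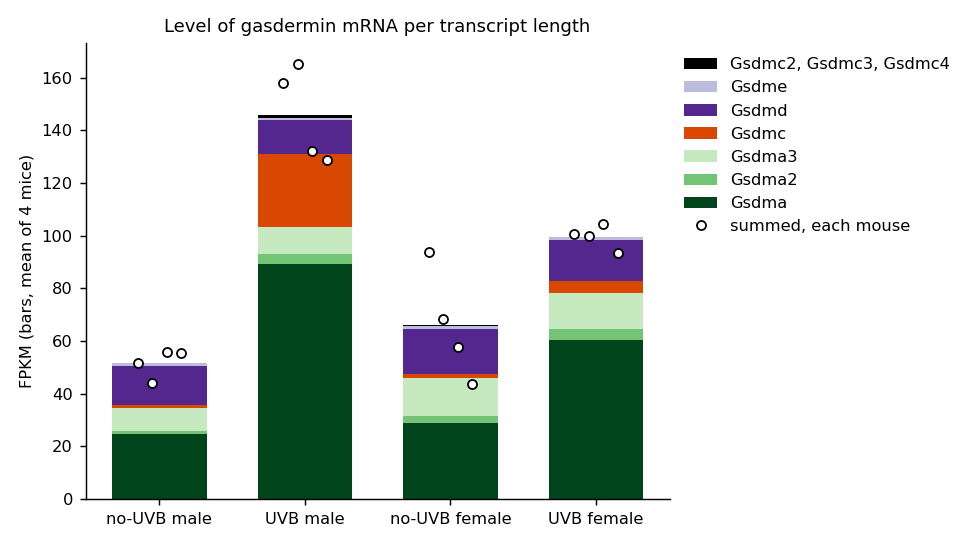
Stacked mean FPKM of the gasdermin genes in the 4 groups, with open points for the sum in each mouse. The dark green block of *Gsdma* is the largest in every group, and the orange block of *Gsdmc* reaches 27.9 FPKM in UVB males and 4.61 in UVB females.

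The neighbours of the clusters did not share the size of the rise. On chromosome 11 the nearest tested protein-coding genes on the *Gsdma3* side, *Ormdl3*, a regulator of sphingolipid synthesis, and *Ikzf3*, a lymphoid transcription factor, did not pass in either sex. On the *Gsdma* side *Psmd3*, a proteasome subunit, rose by 0.43 in males (adjusted p = 7.94e-05) and 0.31 in females (adjusted p = 0.0187), and *Med24*, a Mediator subunit, by 0.19 in males (adjusted p = 0.0286). On chromosome 15 *Cyrib* beside *Gsdmc4* did not pass in either sex, *Asap1* beyond it fell in both (-0.48 and -0.36), and *Myc* (0.28, adjusted p = 0.0161) and *Lratd2* (0.63, adjusted p = 0.000576) rose in males. The last 2 lie far off, 1785594 and 2922190 bases from the row, against 15452 bases for *Cyrib*. *Lratd2* also rose more in males than in females (0.57, adjusted p = 0.0391). Beside *Gsdmd*, *Mroh6* rose by 0.83 in males and 0.60 in females, while *Zc3h3* did not pass in either sex, and *Naprt* (-0.17, adjusted p = 0.0853) and *Mafa* (-0.42, adjusted p = 0.0759) fell in males. Around *Gsdme*, *Fam221a*, 798385 bases away, fell in both sexes (-0.91 and -0.51), *Cycs*, cytochrome c, rose in males (0.16, adjusted p = 0.084), and *Pals2* and *Osbpl3* did not pass in either sex.

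**Figure D4:**
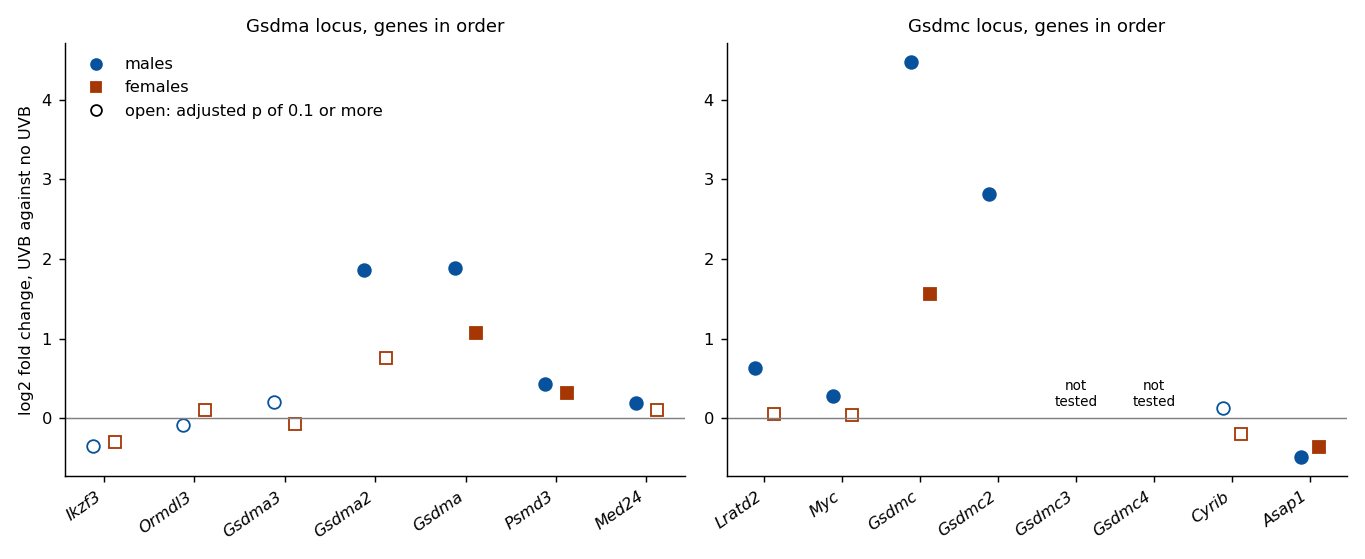
Log2 fold change of UVB against no UVB for the genes of the A and C clusters and the nearest tested protein-coding genes on either side, in genome order but not to scale. The gasdermins that rose reach 1.86 to 4.47 in males, while the highest of the 8 neighbours shown is *Lratd2* at 0.63 in males.

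Sequence before the transcription start is shown for the A row, where neighbours rose unequally, and for *Gsdmc*. Each window holds 250 bases of GRCm39, written in the direction of the gene and ending 1 base before the start of the main transcript, with capitals at matches to a short list of motifs searched on both strands.
Gsdma (chr11:98554927-98555176, plus strand): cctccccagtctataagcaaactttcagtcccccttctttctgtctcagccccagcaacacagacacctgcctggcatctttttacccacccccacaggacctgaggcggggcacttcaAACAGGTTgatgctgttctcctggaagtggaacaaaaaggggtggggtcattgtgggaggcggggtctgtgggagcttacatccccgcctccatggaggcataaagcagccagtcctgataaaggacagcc
Gsdma2 (chr11:98537335-98537584, plus strand): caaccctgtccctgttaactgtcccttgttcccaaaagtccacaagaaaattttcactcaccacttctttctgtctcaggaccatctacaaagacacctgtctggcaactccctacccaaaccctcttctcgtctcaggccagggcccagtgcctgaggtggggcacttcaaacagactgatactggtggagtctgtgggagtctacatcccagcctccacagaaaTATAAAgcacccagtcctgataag
Gsdma3 (chr11:98516936-98517185, plus strand): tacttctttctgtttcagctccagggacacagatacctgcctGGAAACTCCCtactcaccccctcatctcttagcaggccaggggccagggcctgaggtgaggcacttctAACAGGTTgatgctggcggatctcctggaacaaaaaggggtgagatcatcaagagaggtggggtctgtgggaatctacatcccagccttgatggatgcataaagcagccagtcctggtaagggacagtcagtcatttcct
Gsdmc (chr15:63680609-63680858, minus strand): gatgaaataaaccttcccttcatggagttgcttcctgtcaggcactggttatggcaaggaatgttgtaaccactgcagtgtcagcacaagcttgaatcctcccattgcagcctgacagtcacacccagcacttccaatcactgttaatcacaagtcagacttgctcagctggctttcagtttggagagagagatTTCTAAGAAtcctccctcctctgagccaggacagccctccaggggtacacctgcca
The windows of *Gsdma* and *Gsdma3* were 62.4% identical over their alignment, those of *Gsdma* and *Gsdma2* 53% and those of *Gsdma2* and *Gsdma3* 49.2%. The letters AACNNGTT, those of Grainyhead-like factors, began 131 bases before the start in *Gsdma* and 140 bases before it in *Gsdma3*, and 3.7% of 21757 protein-coding promoters of the same length held them. The *Gsdma3* window also held the NF-κB consensus (4.2% of promoters), that of *Gsdma2* held TATAAA beginning 24 bases before the start (11.9% of promoters), and that of *Gsdmc* held TTCNNNGAA, the letters of STAT factors, beginning 56 bases before it (7.7% of promoters). TGANTCA, the letters of AP-1 (6.2% of promoters), was in none of these windows. A match says nothing of binding.

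Genes most alike were sought among 14020 protein-coding genes of at least 1 CPM on average, by the root mean square difference of log2 CPM over the 16 mice, each gene centred on its own mean. For *Gsdma* the nearest were *Klk7*, a protease of corneocyte shedding, at 0.13, *Dnase1l2*, a DNase of cornifying keratinocytes, at 0.17, and *Asprv1*, a protease that acts on filaggrin, at 0.18. Mean CPM of *Klk7* was 285 and 960 in no-UVB and UVB males, and 308 and 685 in the females. For *Gsdma2* they were *Sprr4* at 0.41, *Dnase1l2* at 0.44 and *Etnppl* at 0.48, where *Sprr4* is a precursor of the cornified envelope. For *Gsdmc* they were *Tcf23* at 0.60, *Sprr2a3* at 0.65 and *S100a9* at 0.66, which encode a transcription factor, another envelope precursor and a calprotectin subunit of keratinocytes and neutrophils. Mean CPM of *Tcf23* was 0.299 and 11.3 in no-UVB and UVB males, and 0.244 and 1.65 in the females. *Gsdmc2* lay nearest to *Fhl2* at 0.63, *Fetub* at 0.66 and *Slc7a11* at 0.66, of which *Slc7a11* encodes the cystine transporter. All 16 points share the same treatments, so likeness is a description.

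Keratinocyte and neutrophil markers moved alongside these genes. The counts of markers stand beside 29% of all genes higher and 30.5% lower in males, and 12.8% and 10.6% in females. In males 8 of 9 suprabasal keratinocyte markers rose (median log2 fold change 1.65, against -0.02 over all genes) and in females 6 of 9 (1.06, against 0.00). Among basal markers 3 of 6 rose and 1 fell in males, and 1 rose and 1 fell in females. Sebaceous gland markers rose at 4 of 7 in each sex. Of the neutrophil markers 5 of 6 tested rose in males and 2 of 5 in females, and their summed CPM was 10.2 to 15.7 in no-UVB males and 54.1 to 161 in UVB males, 10.4 to 16.3 in no-UVB females and 19.6 to 29.1 in UVB females. The neutrophil sum holds *S100a9*, which keratinocytes also make, at mean CPM of 1.72 and 39.8 in no-UVB and UVB males. In the females its means were 1.70 and 8.25, so the neutrophil sum does not stand for neutrophils alone. UVB male replicate 2 was the highest in this sum, at 161, and in *Gsdmc*, at 103 CPM. It was also the highest in the suprabasal and basal keratinocyte sums, at 27420 and 11850 CPM. *Ly6g*, a defining neutrophil marker, had 1 read in 1 no-UVB female and 0 reads in every other mouse. T cell markers fell at 4 of 4 in males and 2 of 4 in females, and macrophage markers at 3 of 6 and 2 of 6. In males 4 of 5 fibroblast, 5 of 5 muscle, 3 of 5 adipocyte and 2 of 2 tested hair shaft markers fell, the last beside the high sums of no-UVB replicates 3 and 4, and in females 1 of 5 fibroblast markers rose and 1 fell while the others named here did not pass. The part of any of these cells in the gasdermin values was not tested.

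Of 14 inflammasome sensors and partners, which act before the gasdermins, 12 were tested. In males 4 rose and 2 fell (median log2 fold change -0.14), beside 29% of all genes higher and 30.5% lower. In females 1 rose and 2 fell (median -0.24), beside 12.8% higher and 10.6% lower. The medians over all genes were -0.02 and 0.00. *Nlrp10*, a sensor-family gene of keratinocytes, had 50.02 ± 4.90 CPM (SD, n = 4) without UVB and 91.5 ± 9.10 with it in males (log2 fold change 0.89 ± 0.09 SE), and in females 56.5 ± 10.8 and 99.3 ± 28.0 (0.82 ± 0.20 SE), a rise in both. *Nlrp1b*, a sensor of protease attack, fell in both sexes (-0.85 and -0.73), as did *Naip6* (-0.42 and -0.39), a flagellin receptor. *Nlrp3* rose in males from 1.04 to 1.61 CPM (0.66, adjusted p = 0.0165), and the female value was -0.80 (adjusted p = 0.170). The responses of *Nlrp3* differed by 1.44 (adjusted p = 0.0827), and without UVB its level was lower in males (-1.32, adjusted p = 0.0154). The no-UVB females spread widely in *Nlrp3*, at 2.62 ± 1.31 CPM (1.425 to 3.84), and the UVB females were at 1.48 ± 0.40. These calls of *Nlrp3* were not refitted with a mouse left out. Without UVB, 5 of the 12 tested were lower in males and 0 higher, beside 4.58% of all genes lower and 7.21% higher. *Mefv*, which encodes pyrin, rose in males (0.64, adjusted p = 0.011) and differed in the same direction between the responses (0.80, adjusted p = 0.0805). *Pycard*, the adaptor ASC, rose in males by 0.27 (adjusted p = 0.0409).

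Of 7 proteases that cut gasdermins 6 were tested, of which 4 rose in males (median 0.32, beside 29% of all genes higher) and 1 in females (median 0.33, beside 12.8%), the latter a share near that of all genes. Changes were small beside those of *Gsdma* and *Gsdmc*. *Casp4*, the sensor of cytosolic lipopolysaccharide, rose in males, with 17.5 ± 2.20 CPM without UVB and 22.4 ± 1.63 with it (0.38, adjusted p = 0.0055), and in females, with 18.3 ± 1.72 and 21.5 ± 0.95 (0.24, adjusted p = 0.0843). *Casp8* (0.27) and *Casp1* (0.22) rose in males, and *Gzmb*, granzyme B, rose by 0.75 (adjusted p = 0.0149). *Elane*, neutrophil elastase, was too low to be tested, at 0.267 to 0.330 CPM on average per group. Of the 6 tested, the protease nearest to a call for a difference between the responses was *Casp8*, at 0.25 (adjusted p = 0.219).

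Of 6 genes for released cargo and membrane rupture, 4 rose in males (median 0.82, beside 29% of all genes) and 2 in females (median 0.14, beside 12.8%). *Il18*, a cytokine that leaves through gasdermin pores, was at 25.6 ± 7.52 CPM in no-UVB and 85.7 ± 9.57 in UVB males (1.77 ± 0.19 SE, adjusted p = 9.87e-05), and at 26.9 ± 1.37 and 68.4 ± 19.2 in the females (1.35 ± 0.18 SE, adjusted p = 0.00149). *Il1b* rose likewise, at 3.14 ± 0.96 and 9.41 ± 1.495 CPM in males (1.61, adjusted p = 0.000127) and 3.06 ± 0.81 and 6.17 ± 1.64 in females (1.03, adjusted p = 0.0142). *Il1a* (0.98) and the alarmin *Il33* (0.66) rose in males, and their female values were 0.20 and 0.07 with adjusted p-values of 0.635 and 0.83. *Ninj1*, which ruptures the membrane of dying cells, was at -0.02 in males (adjusted p = 0.894) and -0.05 in females (adjusted p = 0.865).

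Of 9 genes of ESCRT-III, the machinery that pinches off membrane with gasdermin pores, 6 rose in males (median 0.26, beside 29% of all genes) and 3 in females (median 0.17, beside 12.8%), while *Chmp3*, *Chmp4c* and *Vps4a* passed in neither sex. *Chmp2b* rose by 0.57 in males (79.9 ± 3.99 to 117 ± 1.93 CPM) and by 0.39 in females (77.8 ± 5.38 to 102 ± 5.07). *Vps4b*, the ATPase that takes the filaments apart, rose by 0.58 in males and was at 0.20 in females (adjusted p = 0.13), and its responses differed by 0.36 (adjusted p = 0.0461). Of 4 necroptosis genes, which form another lytic path, 3 rose in males (median 0.26, beside 29% of all genes), and the median in females was -0.03. *Ripk3* rose by 0.83 in males (9.93 ± 1.46 to 17.4 ± 1.62 CPM), was at 0.28 in females (adjusted p = 0.162), and its responses differed by 0.54 (adjusted p = 0.0983). *Pjvk*, the gene of the remaining family member pejvakin, had 0 to 3 reads per mouse and was not tested.

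**Figure D5:**
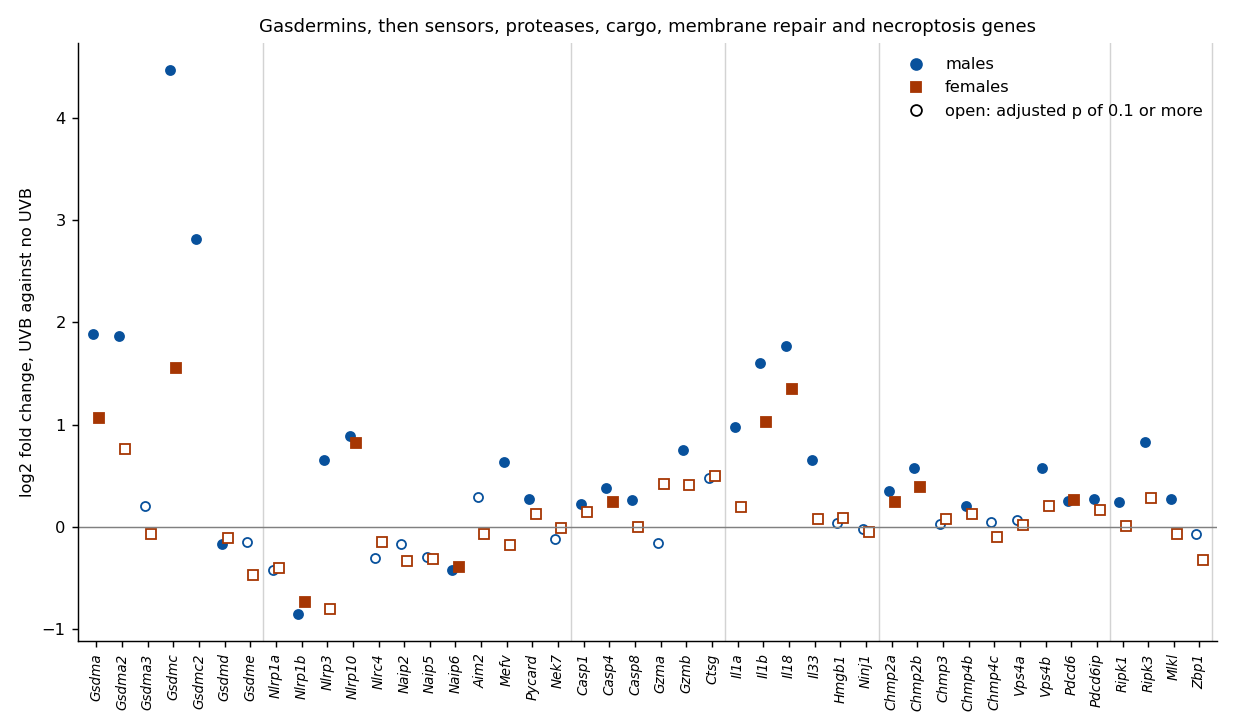
Log2 fold change of UVB against no UVB in males (circles) and females (squares) for the tested gasdermins and the tested genes of 5 lists, separated by grey lines. Filled symbols passed at an adjusted p under 0.1. *Gsdmc* at 4.47 in males is the highest point, and the highest outside the family is *Il18* at 1.77.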

How the data were processed

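For each mouse the authors deposited whole-number counts per gene from STAR on GRCm39, not normalized, in which 0 reads were listed as mapping to several places. The STAR version is not given in the sources used here. The counts of the directional kit's strand were used, the opposite strand holding 3.63 to 4.23% of gene reads. Of 55359 gene identifiers 54749 matched GENCODE M39. All 9 gasdermins matched, 3 of them (*Gsdma3*, *Gsdmd*, *Gsdme*) by identifier without its version.

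Counts were fitted with edgeR 4.0.16 in R 4.3.3 (filterByExpr, TMM, quasi-likelihood with robust estimation, Benjamini-Hochberg over all genes tested), in the 8 mice of each sex for UVB and over all 16 for the interaction and the sexes, with no covariate. A call needed an adjusted p under 0.1. Intervals are 2 SE either way. The 3-read floor covers counting error only. The male fit was also run on simulated counts with known changes in well-counted genes. That run does not cover low counts, the female fit or the interaction. Libraries of the same group were checked against each other and differed beyond sampling noise (chi-square per degree of freedom 10.4 to 109).

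All 9 members are named, with the genes of 5 pathway lists, the 2 nearest tested protein-coding genes on either side of each locus, and the 3 genes most alike to each member past the stricter call. Some genes of the protease list are not reported here, and its counts and medians leave them out. The members, lists and tests were chosen with earlier results of these data known. Alternatives were counts without regard to strand, DESeq2 size factors and upper quartile scaling, DESeq2 1.42.0 with its Wald test and with apeglm 1.24.0 shrinkage, a filter of at least 1 count or of 10 or more in each of the mice, a block for the replicate number, thinning to the smallest library (seed 1), all 16 mice in one fit, library totals without TMM for FPKM, leaving out each mouse and, chosen after seeing the data, leaving out both no-UVB males high in hair shaft markers. Figures were drawn with matplotlib 3.10.9 in Python 3.11.15, with pandas 2.3.3 for tables. FPKM used the length of the canonical transcript. No protein sequences were used here.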

Additional observations from a re-analysis of the deposited data

Results flagged for a closer look

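Replicate 1 of the no-UVB females had 9.95 CPM of *Gsdma2*, beside 1.21 to 2.34 CPM in the other mice of its group, a gap past Dixon's critical value for 4 mice. Chance alone passes this value in about 1 in 20 groups. The check was run on every tested gasdermin in every group, so 1 such gap can be found by chance.

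The response of *Gsdmc* to UVB was larger in males than in females by 2.90 on the log2 scale, by the interaction test over all 16 mice.

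Reads on the strand opposite to *Gsdma* were at 1.29 CPM on average in UVB males and 0.466 CPM in no-UVB males (relative to unscaled totals, as in the next values), and they made up 0.506% and 0.727% of the reads of both strands. In females they were at 0.417 CPM with UVB and 0.61 CPM without it.

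Reads on the strand opposite to *Gsdmc* were at 0.397 CPM in UVB males and 0.0218 CPM in no-UVB males, and they made up 0.564% and 0.778% of the reads of both strands. In females they were at 0.0412 CPM with UVB and 0.0887 CPM without it.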

How the results depend on the processing

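The 4 rises in males kept their call under the alternatives run, except that *Gsdmc2* drops out of the test with a filter of 10 counts in every mouse and with thinned counts. With every gene of at least 1 count, 5 gasdermins were higher, the added one being *Gsdmc3*, which has at most 3 reads in any mouse and enters through the UVB males alone. The fall of *Gsdmd* in males was the 1 lower call there, and the count was 0 with DESeq2's Wald test, with every gene of at least 1 count, with thinned counts, with all 16 mice in one fit and without both no-UVB males high in hair shaft markers (chosen after seeing the data), and 0 to 1 with a mouse left out. In females the 2 rises became 1, *Gsdma*, with every gene of at least 1 count, also by the stricter call, and 0 by the stricter call with apeglm. With a mouse left out they were 1 to 3, and 0 to 3 by the stricter call. The interaction count of 1 became 2 with DESeq2's Wald test, where *Gsdma* was added (adjusted p = 0.0467), and 2 with the replicate block, where *Gsdmc2* was added (adjusted p = 0.0631), and 2 without those males, where *Gsdma* was added, and was 1 to 2 with a mouse left out. Between the sexes, lower calls were 0 to 2 without UVB and 0 to 1 after UVB with a mouse left out. The cause was not tested.

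Directions turned for values that were not called. *Gsdma3* in females was 0.0481 with the replicate block and -0.30 to 0.31 with a mouse left out, and its interaction was -0.12 to 0.51. *Gsdme* in males was -0.26 to 0.02 with a mouse left out and 0.0032 without both males, and its interaction was -0.0745 in counts without regard to strand. Between the sexes with a mouse left out, *Gsdmc2* without UVB was -0.18 to 0.54 and *Gsdma2* after UVB -0.20 to 0.0701.

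Correlations of the deviations of same-numbered mice were -0.073 to 0.022 in males and -0.115 to 0.217 in females. Of the UVB mice, 0 of 4 males and 2 of 4 females were closest to their own number. The 4 pairs of each sex are too few to decide whether the numbers pair the mice. The block changed no other call.

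Over all genes, upper quartile scaling moved the split of higher and lower calls from 4802 and 5051 to 3880 and 6130 in males, from 2162 and 1787 to 1737 and 2157 in females and from 2222 and 2169 to 1659 and 2736 between the sexes after UVB, and DESeq2 size factors moved the interaction from 478 and 740 to 687 and 641. The interaction count of 478 was 1102 with DESeq2's Wald test (938 lower), 832 without both males and 229 with every gene of at least 1 count, and that filter moved 2222 to 1434. With strict calls it moved 675 to 1124 upward and 547 to 923 downward in males, leaving out both males moved 675 to 1027, a filter of 10 counts moved 547 to 359 in males and 275 to 180 in females, and apeglm moved 183 to 106 in females. The FPKM of *Gsdmd* in no-UVB females was 18.04 without TMM, beside 16.8. With 4 mice per group and 2 to 78 reads per mouse, *Gsdmc2* is the least precise of the called genes, and *Gsdmc3* and *Gsdmc4* lie below what this depth can test.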
